A study of Mus musculus with 8 samples.

Results

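Platelet adhesion receptors are the surface glycoproteins with which platelets, and the megakaryocytes that shed them, hold on to a damaged vessel wall and to each other. The 8 genes described here were taken by symbol, and all 8 had a row among the 23293 mouse genes of the table. They are Gp1ba, Gp1bb, Gp9 and Gp5 (the GPIb-IX-V receptor for von Willebrand factor), Gp6 (a collagen receptor), Clec1b (the podoplanin receptor CLEC-2), and Itga2b and Itgb3 (the chains of the fibrinogen receptor, integrin alpha IIb beta 3). Of the 8, 7 averaged 1 FPKM or more across all libraries and were tested among 10854 genes. FPKM counts fragments scaled to transcript length and to the mapped total of a library, so levels of different genes can be set beside each other. Gp6 stayed below that mean and enters only a fit with no filter on low values.

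In the adhesion cascade, the GPIb-IX-V complex catches von Willebrand factor under flow, and GPVI and CLEC-2 then signal through Syk when they meet collagen or podoplanin. That signal turns the integrin from a low to a high affinity for fibrinogen, and fibrinogen bridges platelets to each other. In the marrow, Itga2b appears in early progenitors with megakaryocyte potential, and the GPIb-IX-V genes are expressed late in megakaryocyte maturation. Itgb3 also pairs with the alpha V chain on cells outside the platelet lineage.

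The libraries came from c-Kit+ cells, a fraction rich in stem and progenitor cells that was taken from the bone marrow of single mice on magnetic beads. All mice had received PIpC, which induces the Mx1-cre recombinase where it is present, 4 weeks earlier. There were 4 groups of 2 mice. Controls were Smc3 fl/+, with a floxed allele of the cohesin subunit Smc3 and no Mx1-cre. Mice labelled Smc3 del/+ carried Mx1-cre and 1 floxed Smc3 allele. Flt3-ITD mice carried Mx1-cre and an internal tandem duplication in the receptor kinase gene Flt3. Mice labelled Smc3 fl/del Flt3-ITD in the genotype field, and Smc3het in the title, carried Mx1-cre, floxed Smc3 and Flt3-ITD, and are called the combined group. Mx1-cre acts in blood cells and also in other interferon-responsive cells. Age was not stated in the labels, and only the controls lacked the recombinase, so that every difference from control cannot be told apart from an effect of Mx1-cre.

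Some facts of the libraries bear on all results. Smc3 was at 119 and 112 FPKM in the controls, 135 and 133 in the libraries labelled Smc3 del/+, 94.7 and 89.9 in Flt3-ITD, with 103 and 136 in the combined libraries, so it was not lower where the labels give a deletion. FPKM sums over all exons of a gene, and the deleted part is not named in the labels, so the level cannot show the loss of a part of the gene, and groups are named here by their labels. Kit was at 54.9 to 60.2 FPKM in the controls and at 37.4 to 57.6 in the other 6 libraries, and Flt3 at 3.64 to 14.3 FPKM over all 8. Xist, the RNA of the inactive X chromosome, was at 500 to 657 FPKM in the control and combined libraries and below 1 FPKM in the other 4. Comparisons of the control or combined libraries with those labelled Smc3 del/+ or Flt3-ITD therefore also compare the sexes. The second combined library stood apart, with 11076 genes listed at 0 against 8878 to 9907 in the others, and the combined replicates correlated across genes with r = 0.932 against 0.975 to 0.981 in the other groups. In such bulk samples, fewer cells of a type and less RNA per cell cannot be told apart.

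All 8 receptor genes were detected in both controls (see the plot of receptor levels by library). Gp1ba and Itgb3 were the most abundant, at 16.5 to 19.9 and 14.9 to 16.4 FPKM. Itga2b followed at 8.58 and 9.04 FPKM, and Clec1b at 7.68 and 7.77 FPKM. Gp5 and Gp9 overlapped in level, at 5.10 to 6.24 and 5.26 to 5.30 FPKM. Gp1bb and Gp6 closed the order at 2.13 to 3.08 and 0.681 to 1.32 FPKM. The 8 genes together summed to 65.3 and 64.6 FPKM in the controls. Their sum was 28.2 and 28.9 FPKM in the libraries labelled Smc3 del/+, 29.6 and 26.4 FPKM in Flt3-ITD, with 27.1 and 11.4 FPKM in the combined libraries. The genes behind these sums differed, since Itgb3 made up 16.2 of 29.6 FPKM in the first Flt3-ITD library and 8.29 of 28.2 FPKM in the first library labelled Smc3 del/+. The order of levels changed as well: Itgb3 ranked first in all 6 libraries outside the controls, and Gp1ba moved from rank 1 in both controls to ranks 6 and 5 in Flt3-ITD.

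**Figure D1:**
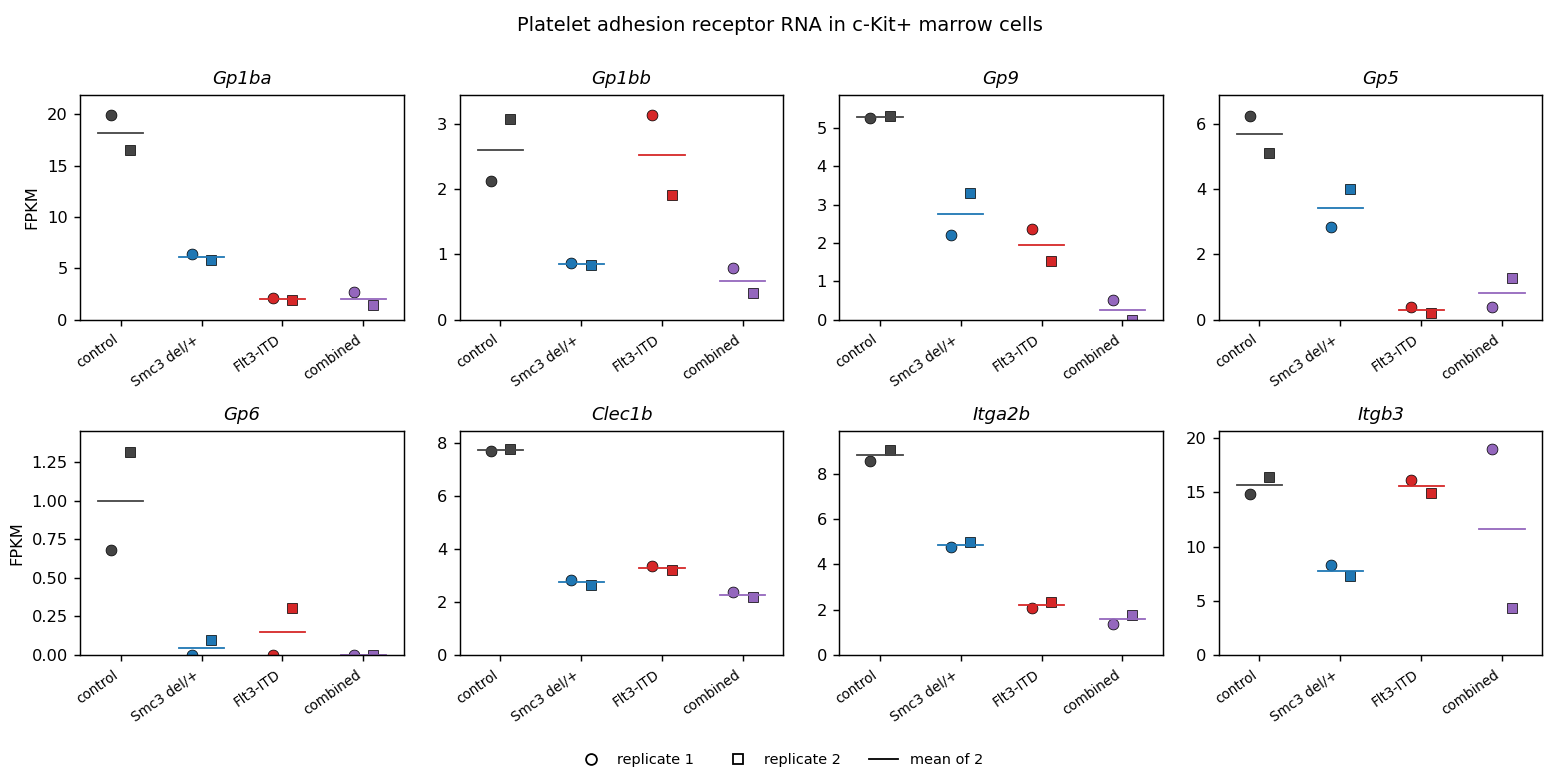
FPKM of each of the 8 receptor genes (vertical axes, linear and starting at 0) in the 4 genotype groups, with a circle for replicate 1, a square for replicate 2 and a line at their mean. Control libraries are highest for 6 of the 8 genes; for Gp1bb and Itgb3 the Flt3-ITD libraries overlap with the controls.

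Gp1ba encodes the chain of the GPIb-IX-V complex that binds von Willebrand factor. It was at 19.9 and 16.5 FPKM in the controls, 6.42 and 5.79 in the libraries labelled Smc3 del/+, 2.07 and 1.90 in Flt3-ITD, with 2.70 and 1.41 in the combined libraries. The controls were the highest and the libraries labelled Smc3 del/+ lay between them and all 4 Flt3-ITD carriers, with no overlap among these 3 levels. The Flt3-ITD mean was 10.9% of the control mean, against 33.6% in the libraries labelled Smc3 del/+. On the log2(FPKM + 1) scale the gene was lower in Flt3-ITD than in controls by -2.68 ± 0.24 (SE; limma, Benjamini-Hochberg adjusted p = 0.00134).

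Gp5, the subunit that thrombin cleaves and that also binds collagen, had the lowest share of its control level left in Flt3-ITD among the tested receptors, at 5.16%. Its levels were 6.24 and 5.10 FPKM in the controls, 2.85 and 4.00 in the libraries labelled Smc3 del/+, 0.387 and 0.198 in Flt3-ITD, with 0.375 and 1.28 in the combined libraries. As for Gp1ba, the 4 Flt3-ITD carriers were all below the libraries labelled Smc3 del/+, which were both below the controls. The difference of Flt3-ITD from control was -2.37 ± 0.31 (adjusted p = 0.00418).

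The promoters of Gp1ba and Gp5 are shown because these genes differed most between Flt3-ITD and control, and that of Clec1b because this gene fell less in the same libraries. GATA factors and ETS factors such as FLI1 are the textbook activators of megakaryocyte promoters. Each run is the 250 bases before the RefSeq start site on GRCm38.p6, read 5′ to 3′ on the gene's strand, with matches to GATA words (AGATAA or AGATAG, and TGATAA or TGATAG) and ETS words (CGGAAG or AGGAAG) on either strand in capitals.
Gp1ba, plus strand, chr11:70638872-70639121: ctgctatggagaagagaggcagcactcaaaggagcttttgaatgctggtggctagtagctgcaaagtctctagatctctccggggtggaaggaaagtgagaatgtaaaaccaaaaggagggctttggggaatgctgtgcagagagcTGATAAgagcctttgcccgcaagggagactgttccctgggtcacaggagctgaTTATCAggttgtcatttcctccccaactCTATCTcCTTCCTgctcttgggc
Gp5, minus strand, chr16:30310782-30311031: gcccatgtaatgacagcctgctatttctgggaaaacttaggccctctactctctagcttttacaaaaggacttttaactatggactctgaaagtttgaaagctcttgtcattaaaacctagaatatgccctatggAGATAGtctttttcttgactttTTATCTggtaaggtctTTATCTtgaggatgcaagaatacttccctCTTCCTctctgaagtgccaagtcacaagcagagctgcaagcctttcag
Clec1b, plus strand, chr6:129397047-129397296: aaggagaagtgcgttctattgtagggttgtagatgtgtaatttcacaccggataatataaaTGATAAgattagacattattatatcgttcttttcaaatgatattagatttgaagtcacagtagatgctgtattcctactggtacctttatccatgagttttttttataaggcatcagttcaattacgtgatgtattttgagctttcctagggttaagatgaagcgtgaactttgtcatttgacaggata
The Gp1ba and Gp5 windows each held 3 GATA words and 1 ETS word, and the Clec1b window held 1 GATA word and no ETS word. The matches do not overlap each other. Of the 7 receptors with a RefSeq window, 5 held a GATA word (Gp1ba, Gp1bb, Gp5, Gp6 and Clec1b) and 5 an ETS word (Gp1ba, Gp1bb, Gp9, Gp5 and Itga2b). Among 32851 promoter windows of the same length, 26.5% held a GATA word and 39.2% an ETS word. Gp9 and Itga2b, which were also lower in the Flt3-ITD carriers, had no GATA word in this window. These matches describe the letters only; binding was not measured.

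Gp9 encodes the small subunit that the complex needs to reach the surface. It was at 5.26 and 5.30 FPKM in the controls, 2.20 and 3.29 in the libraries labelled Smc3 del/+, 2.35 and 1.52 in Flt3-ITD, with 0.514 and 0 in the combined libraries. Controls were highest, the libraries labelled Smc3 del/+ overlapped with Flt3-ITD, and the combined libraries were lowest. Gp9 was lower than in controls by -1.11 ± 0.30 in Flt3-ITD (adjusted p = 0.0412) and by -2.35 ± 0.30 in the combined group (adjusted p = 0.00574). The Flt3-ITD call was lost with a pseudocount of 0.1 FPKM (adjusted p = 0.257), with no filter on low values (0.0664) and without either library labelled Smc3 del/+ (0.0737 and 0.0751). The value of 0 is in the library with the most genes listed at 0.

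Gp1bb encodes the beta chain that is disulphide-linked to the Gp1ba product. It was at 2.13 and 3.08 FPKM in the controls, 0.868 and 0.842 in the libraries labelled Smc3 del/+, 3.14 and 1.92 in Flt3-ITD, with 0.794 and 0.407 in the combined libraries. Unlike the other 3 subunits, it overlapped between Flt3-ITD and control, and all 4 libraries labelled with the Smc3 deletion were below all 4 others. The fitted difference of Flt3-ITD from control was -0.04, with a 95% interval from -0.72 to 0.64. This value is uncertain, because Gp1bb overlaps the septin gene Sept5 on the same strand in the GENCODE M21 annotation, and its FPKM was only 4.29% and 5.23% of that of Sept5 in the controls.

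Sept5 itself followed another pattern, at 49.6 and 58.9 FPKM in the controls, 52.5 and 50.4 in the libraries labelled Smc3 del/+, 149 and 105 in Flt3-ITD, with 62.1 and 46.4 in the combined libraries. It was higher in Flt3-ITD than in control by 1.20 ± 0.21 (adjusted p = 0.0103), which did not pass with spike-in scaling (0.66; adjusted p = 0.0831). Gp1bb fell to 2.11% and 1.82% of the Sept5 level in Flt3-ITD, 1.65% and 1.67% in the libraries labelled Smc3 del/+, with 1.28% and 0.878% in the combined libraries. Set against Sept5, Gp1bb was thus below both controls in all 6 other libraries, although by its own FPKM the Flt3-ITD libraries overlapped with the controls. No source used here states how reads were split between the overlapping genes, and the part of that step in the Gp1bb values was not tested.

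**Figure D2:**
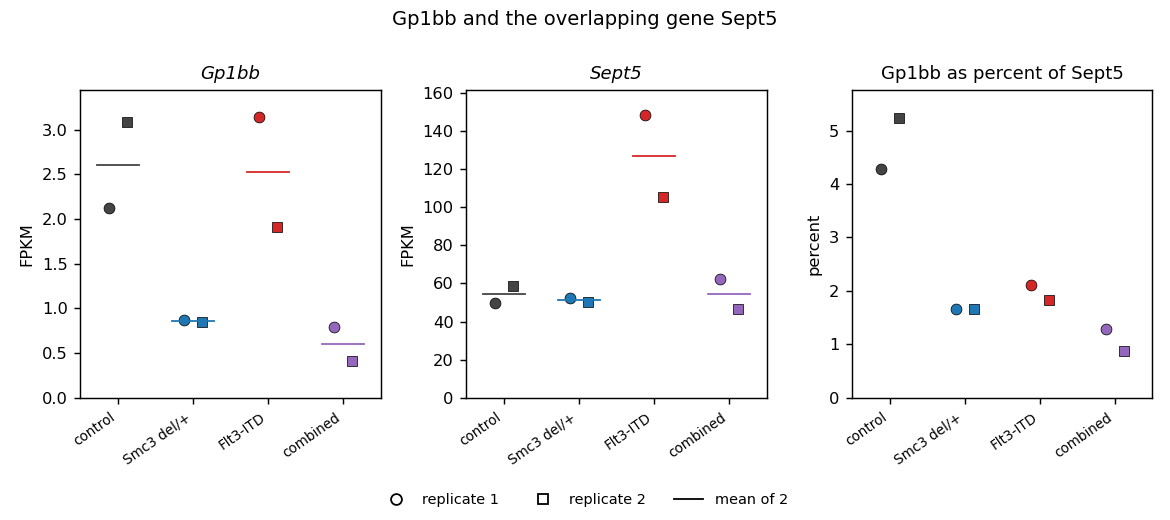
FPKM of Gp1bb and of the overlapping gene Sept5, and Gp1bb as a percent of Sept5 (vertical axes, linear and starting at 0), in the 4 groups; circles are replicate 1, squares replicate 2 and lines the means. Sept5 is highest in Flt3-ITD, and the percent is highest in the 2 controls, at 4.29% and 5.23%.

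The receptors that signal through Syk were lower in all 6 libraries outside the controls. Clec1b, whose product binds podoplanin, was at 7.68 and 7.77 FPKM in the controls, 2.82 and 2.66 in the libraries labelled Smc3 del/+, 3.37 and 3.19 in Flt3-ITD, with 2.37 and 2.17 in the combined libraries. The controls stood clear of the rest and the replicates of each group lay close together, with SDs of 0.0663 to 0.140 FPKM. Unlike Gp1ba, Clec1b was lower in the libraries labelled Smc3 del/+ than in those of Flt3-ITD. The difference of Flt3-ITD from control was -1.03 ± 0.18 (adjusted p = 0.0116). Clec1b overlaps Clec9a, a dendritic cell receptor, on the same strand, and Clec9a was at 1.51 and 1.77 FPKM in the controls and at 18.2 and 11.4 FPKM in the combined group, where Clec1b was lowest.

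Gp6, whose product binds collagen and signals through the chain encoded by Fcer1g, was at 0.681 and 1.32 FPKM in the controls. It was listed at 0 and 0.0957 FPKM in the libraries labelled Smc3 del/+, at 0 and 0.301 in Flt3-ITD and at 0 in both combined libraries. Both controls were above all 6 other libraries, at levels where the read depth behind a value is unknown. With no filter on low values, Gp6 differed from control by -0.98 ± 0.18 in the combined group (adjusted p = 0.0342) and by -0.79 ± 0.18 in Flt3-ITD (adjusted p = 0.04997). The difference was -0.91 ± 0.18 in the libraries labelled Smc3 del/+ (adjusted p = 0.344), and the averaged Flt3-ITD effect was -0.43 (adjusted p = 0.170), neither past the threshold.

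Both chains of the fibrinogen receptor were expressed. They came apart in Flt3-ITD and in the first combined library, while in the second combined library both were below the controls. Itga2b, the alpha IIb chain, was at 8.58 and 9.04 FPKM in the controls, 4.76 and 4.97 in the libraries labelled Smc3 del/+, 2.07 and 2.33 in Flt3-ITD, with 1.38 and 1.79 in the combined libraries. These 4 levels did not overlap. Itga2b was lower in Flt3-ITD than in control by -1.61 ± 0.19 (adjusted p = 0.00296).

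Itgb3, the beta 3 chain, was at 14.9 and 16.4 FPKM in the controls, and its Flt3-ITD levels of 16.2 and 15.0 FPKM overlapped with these. The libraries labelled Smc3 del/+ were at 8.29 and 7.25 FPKM. The combined libraries lay at opposite ends, the first the highest of all 8 at 19.0 FPKM and the second the lowest at 4.32 FPKM. The fitted difference of Flt3-ITD from control was -0.00 with a 95% interval from -1.20 to 1.19, so that a difference of up to 1 log2 unit either way lies inside it. The difference of the combined group from control was -0.69 ± 0.51 (adjusted p = 0.423). It was -1.65 without the first combined library (adjusted p = 0.00166) and 0.26 without the second, so its direction rests on which of these libraries is used.

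The ratio of Itgb3 to Itga2b was 1.74 and 1.82 in the controls and 1.74 and 1.46 in the libraries labelled Smc3 del/+. It was 7.81 and 6.42 in Flt3-ITD, with 13.8 and 2.42 in the combined libraries, so that all 4 carriers were above all 4 other libraries. Itgav, the other alpha chain that pairs with beta 3, was at 6.46 and 5.89 FPKM in the controls and reached 10.8 and 10.5 FPKM in the Flt3-ITD libraries, a difference of 0.70 ± 0.16 (adjusted p = 0.0270). It was at 11.0 and 9.16 FPKM in the combined group, again above the controls (0.62 ± 0.16; adjusted p = 0.0489). With libraries scaled to equal spike-in totals, neither rise of Itgav passed (0.22 in Flt3-ITD, adjusted p = 0.527, and -0.00 in the combined group, adjusted p = 0.995). In Flt3-ITD, then, Itgb3 overlapped with its control level while Itga2b was lower.

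**Figure D3:**
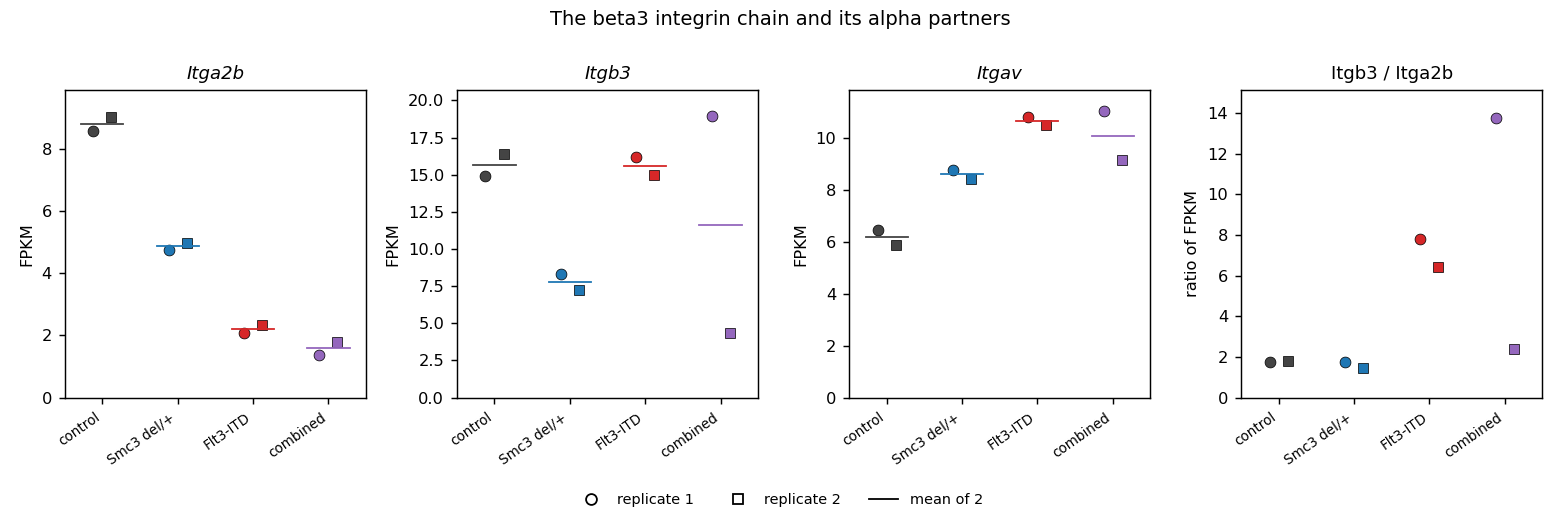
FPKM of Itga2b, Itgb3 and Itgav, and the ratio of Itgb3 to Itga2b (vertical axes, linear and starting at 0), in the 4 groups; circles are replicate 1, squares replicate 2 and lines the means. The ratio is 1.46 to 1.82 in the 4 libraries without Flt3-ITD and 2.42 to 13.8 in the 4 carriers, where the combined libraries are far apart in Itgb3.

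The first comparison addresses the loss of 1 Smc3 allele where Flt3 is not mutated. In the libraries labelled Smc3 del/+, all 7 tested receptors were below both controls, with log2 fold changes from -0.60 (Gp5) to -1.43 (Gp1ba) and a median of -0.93, against a median of 0.00 over all genes tested. Of all genes tested, 23.2% were likewise lower without overlap. By limma, 0 of 7 passed an adjusted p of 0.05, where 0.00921% of all genes were called lower. At an unadjusted p under 0.05, 5 of 7 were lower (Gp1ba, Gp1bb, Gp9, Itga2b and Clec1b), against 2.25% of all genes. The 95% intervals ran from -2.0 to -0.86 for Gp1ba and from -1.65 to -0.79 for Clec1b. The adjusted p of Gp1ba was 0.334, and it passed without the first or the second combined library (0.0314 without the second), where the spread that all groups share is smaller and 0.0645% of all genes were called lower.

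The comparison of Flt3-ITD with control asks for the effect of the mutated kinase with Smc3 unaltered by label. Here 5 of 7 receptors fell (Gp1ba, Gp9, Gp5, Itga2b and Clec1b), against 9.5% of all genes tested called lower, and 0 of 7 rose, against 8.51% called higher. The median log2 fold change of the 7 was -1.11, against -0.01 over all genes. Gp1bb and Itgb3 did not pass, with adjusted p of 0.943 and 0.998. Without the first control library only Gp1ba and Itga2b passed, and without the second control or either Flt3-ITD library Gp1ba, Gp5 and Itga2b did, while the share of all genes called lower was 1.78% to 4.27% in these 4 fits. A fit that leaves a group with 1 library assumes that this library varies like the other groups.

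The combined group differed from control in 6 of 7 receptors, all lower, against 6.38% of all genes. These were the 5 above and Gp1bb (-1.17 ± 0.29; adjusted p = 0.0415). Gp1ba fell by 2.68, Gp9 by 2.35, Itga2b by 1.93, Gp5 by 1.91 and Clec1b by 1.42 on the log2(FPKM + 1) scale, with adjusted p from 0.00264 to 0.0112. Their mean levels were 4.86% (Gp9) to 29.4% (Clec1b) of the control means. Both groups have the same Xist pattern, so that sex does not differ here. Without either control library 2 of 7 passed (Gp1ba and Itga2b), against 0.562% of all genes called lower, and in a fit of these 2 groups alone 0 of 7 did, where 0.221% of all genes were called lower and the spread came from 4 libraries, 1 of which stood apart.

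**Figure D4:**
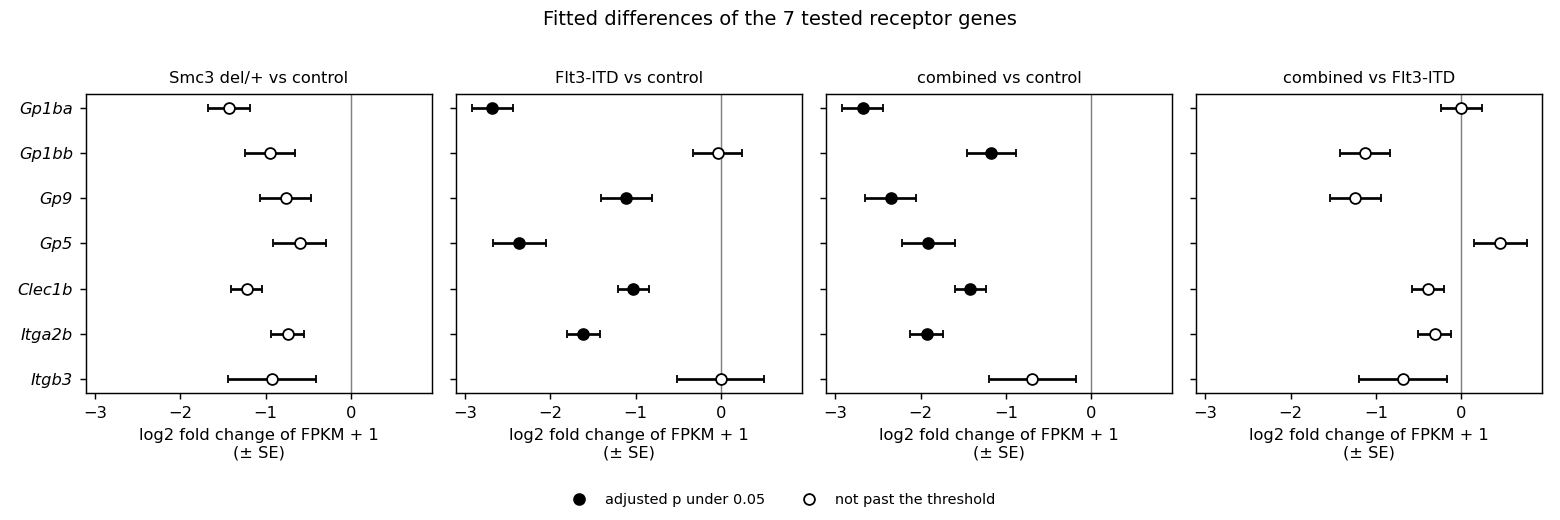
Log2 fold change of FPKM + 1 ± SE (horizontal axis) of the 7 tested receptor genes in 4 comparisons, from limma; filled points have an adjusted p under 0.05. Filled points number 0, 5, 6 and 0 of 7 from left to right, and the first 3 panels share the same controls.

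Within the Flt3-ITD carriers, the combined group was set against Flt3-ITD alone to ask what the Smc3 deletion adds; the 2 groups also differ in sex by the Xist pattern, which cannot be told apart from the deletion here. By limma 0 of 7 receptors passed, against 0.0461% of all genes called lower, and at an unadjusted p under 0.05 Gp1bb and Gp9 were lower (2 of 7, against 5.03%). Gp1bb differed by -1.13 (95% interval -1.81 to -0.45; adjusted p = 0.239) and Gp9 by -1.24 (-1.94 to -0.54; adjusted p = 0.223). Itga2b and Clec1b were also below both Flt3-ITD libraries in both combined libraries, and 16.8% of all genes were lower without overlap. Gp1ba differed by 0.00, with an interval from -0.57 to 0.57, and Gp5 by 0.46, with an interval from -0.27 to 1.18. Without the first combined library, Gp1bb, Gp9 and Itgb3 passed (Itgb3 -1.64; adjusted p = 0.00238), so this count rests on a single library, and the share of all genes called lower rose to 15.5% in that fit.

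The libraries labelled Smc3 del/+ and those of Flt3-ITD share the Xist pattern and Mx1-cre, and no control enters their difference except through the shared spread. Gp1ba (1.25 ± 0.24; adjusted p = 0.0240), Gp5 (1.77 ± 0.31; adjusted p = 0.0182) and Itga2b (0.87 ± 0.19; adjusted p = 0.0361) were higher in the libraries labelled Smc3 del/+, 3 of 7 against 5.34% of all genes called higher. Gp1bb, Itgb3 and Clec1b were lower there without overlap, as were 32.8% of all genes, and did not pass. Receptor genes therefore stood on both sides of 0 in this comparison. All 3 calls were lost when any control, Smc3 del/+ or Flt3-ITD library was left out, and calls over all genes fell from 993 to between 59 and 317. Without either combined library 5 of 7 passed (adding Gp1bb and Itgb3, both lower), and calls over all genes rose to 3382 and 3409.

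Averaged over both Smc3 labels, the Flt3-ITD effect compares 4 carriers with 4 other libraries and is balanced for the Xist pattern. It is not balanced for Mx1-cre, which all 4 carriers have and the controls among the other 4 lack. Gp1ba (-1.97 ± 0.29; adjusted p = 0.00339), Gp5 (-1.84 ± 0.28; adjusted p = 0.00356), Itga2b (-1.40 ± 0.15; adjusted p = 0.00148) and Gp9 (-1.35 ± 0.22; adjusted p = 0.00493) fell, 4 of 7 against 12.8% of all genes called lower. These 4 passed in each of the 16 alternative fits of this effect, which include leaving out each library in turn. Clec1b just missed the threshold (-0.61 ± 0.19; adjusted p = 0.0501) and passed with spike-in scaling (adjusted p = 0.00995), in the normalized table (0.0110), and with sex by the Xist pattern as a term (0.0144). Itgb3 (0.12 ± 0.34; adjusted p = 0.834) and Gp1bb (-0.13 ± 0.20; adjusted p = 0.676) did not pass, and the sign for Itgb3 turned to -0.28 when libraries were scaled to equal spike-in totals and -0.32 in the normalized table. Those scalings moved the median of all genes in Flt3-ITD against control to -0.49 and -0.58, and its calls from 1031 lower and 924 higher to 3363 and 103, and to 4676 and 107. The 5 receptors called in that comparison stayed called, at -1.50 to -3.16 and -1.67 to -3.29.

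The Smc3 deletion effect averaged over both Flt3 states gave 0 of 7 calls, where 0.0% of all genes were called. This effect is not balanced for Mx1-cre either, since the controls are among the libraries without the deletion. At an unadjusted p under 0.05, 6 of 7 were lower (all but Gp5), against 2.73% of all genes. Gp1bb and Clec1b were lower without overlap in all 4 libraries labelled with the deletion, against 0.783% of all genes. For the interaction, which asks whether the 2 effects add on this scale, 0 of 7 passed, against 0.0369% of all genes called in either direction. At an unadjusted p under 0.05, Gp1ba, Gp5 and Clec1b were positive (3 of 7, against 5.2%). The interaction follows the sex of the mice in full, so the pair cannot be told apart.

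The ligands of these receptors were measured in the same cells. Vwf, the ligand of the GPIb-IX-V complex, was at 5.05 and 5.08 FPKM in the controls, 1.75 and 2.21 in the libraries labelled Smc3 del/+, 0.342 and 0.670 in Flt3-ITD, with 0.662 and 1.56 in the combined libraries. Its order of groups was that of Gp5, and it fell in the averaged Flt3-ITD effect (-1.27 ± 0.32; adjusted p = 0.0232). Mmrn1, a platelet granule protein that forms large multimers as Vwf does, fell too (-1.93 ± 0.34; adjusted p = 0.00660), so that 2 of 4 tested ligand genes were lower and 0 higher, against 12.8% and 10.9% of all genes. Of the others, thrombospondin (Thbs1) was at 22.9 and 24.4 FPKM in the controls, 5.83 and 4.38 in the libraries labelled Smc3 del/+, 14.4 and 20.2 in Flt3-ITD, with 24.9 and 5.24 in the combined libraries. Fibronectin (Fn1) was at 10.5 and 0.965 FPKM in the 2 combined libraries. Both genes thus split these libraries in the same direction as Itgb3. The 3 fibrinogen genes and Vtn were listed at 0 in all 8 libraries, and podoplanin (Pdpn) did not exceed 0.320 FPKM.

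Of the genes that carry the receptor signal inward, most did not fall with the receptors. Of 17 tested, 7 rose in the averaged Flt3-ITD effect and 1 fell, with a median log2 fold change of 0.45 against -0.01 for all genes, of which 10.9% were called higher and 12.8% lower. The rises depended on the scaling: with equal spike-in totals 1 of the 17 rose and 3 fell, with a median of 0.02, while of all genes 236 rose and 4134 fell, with a median of -0.40. The normalized table gave the same 2 counts for the list. Fcer1g, the signalling chain of GPVI and of Fc receptors, rose (0.92 ± 0.13; adjusted p = 0.00278), at 560 to 672 FPKM in Flt3-ITD against 289 to 304 in the controls. The kinase Lyn (0.78 ± 0.10; adjusted p = 0.00211) and the adaptor Lcp2 (0.73 ± 0.13; adjusted p = 0.00684) rose as well, but with spike-in scaling only Fcer1g still passed (0.49; adjusted p = 0.0404). The adaptor Lat, which is used by T cells and platelets, fell (-1.34 ± 0.25; adjusted p = 0.00749), from 2.23 to 2.72 FPKM in the controls to at most 0.554 FPKM in the 4 carriers. Most of these kinases and adaptors also serve myeloid cells.

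The genes that switch the integrin on from inside gave 2 rises and 0 falls of 9 tested, the small GTPase gene Rap1b (0.39 ± 0.10; adjusted p = 0.0207) and that of its exchange factor, Rasgrp2 (0.39 ± 0.11; adjusted p = 0.0400), and both turned to -0.04 with spike-in scaling. Among 7 tested integrin partners, Itga5 fell (-0.62 ± 0.14; adjusted p = 0.0172) and the tetraspanin Cd9, Itgav and Itga6 rose. Of 5 genes for receptor shedding and inhibition, Treml1 fell, Ceacam1 and Pecam1 rose, and the sheddase Adam10 was at -0.24 (adjusted p = 0.0691). The next list held G protein-coupled receptors and the ion channel P2rx1. Of its 6 tested genes, the thrombin receptors F2r and F2rl2 and the ADP receptor P2ry1 fell and the prostacyclin receptor Ptgir rose. With spike-in scaling these falls still passed and 0 of the rises in these 4 lists did. Itga6 turned to -0.10. In the averaged Flt3-ITD effect without that scaling, 12.8% of all genes were called lower and 10.9% higher.

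Other megakaryocyte genes fell in part. Of 7 megakaryocyte and platelet markers, 4 fell in the averaged Flt3-ITD effect (Treml1, Ppbp, Pf4 and Tubb1) and 0 rose. Of all genes, 12.8% were called lower and 10.9% higher. In the libraries labelled Smc3 del/+, Tubb1 was at 6.9%, Ppbp at 14%, Pf4 at 47% and Treml1 at 61% of their control means. In Flt3-ITD they were at 4.9%, 3.5%, 10% and 5.8%, so Tubb1 was nearly as low without Flt3-ITD. The median of the 7 markers was -1.43. Their summed FPKM was 187 to 189 in the controls, 72.7 to 78.7 in the libraries labelled Smc3 del/+, 40.8 to 43.0 in Flt3-ITD, with 35.9 and 74.6 in the combined libraries. The second combined library was thus the higher of its pair for these markers and the lower for the summed receptors. Each gap came mostly from a single gene. Pf4 was at 9.54 and 52.05 FPKM in the combined libraries, and Itgb3 at 18.97 and 4.32 FPKM. Among the markers, Tubb1 and Nbeal2 were lower in the second library, and among the receptors, Gp5 and Itga2b were higher there. The sums therefore do not describe the lists gene by gene. Of 15 tested granule and related genes, 5 fell and 2 rose, among them the chemokine Ppbp (-2.94 ± 0.56; adjusted p = 0.00838) and the coagulation factor gene F13a1 (0.92 ± 0.16; adjusted p = 0.00678, and 0.0741 with spike-in scaling), which monocytes also express.

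Of 19 transcription factors of the megakaryocyte programme, 6 fell and 2 rose in the averaged Flt3-ITD effect. Of all genes, 12.8% were called lower and 10.9% higher, so the rises are near the share over all genes. Gata1 fell by 2.97 (adjusted p = 0.00187), from 30.1 and 32.1 FPKM in the controls to 3.16 and 0.534 in Flt3-ITD, with 3.60 and 5.83 in the combined libraries, and its cofactor Zfpm1 fell by 2.48 (adjusted p = 8.23e-04). Tal1 fell by 2.10 and Gfi1b fell by 2.91. In the libraries labelled Smc3 del/+, Gata1 was at 26.6 and 25.5 FPKM, which is 83.6% of its control mean. Tal1 was at 82.6%, Gfi1b at 66.5% and Zfpm1 at 64.3% of theirs, and Gp1ba at 33.6%. By limma 0 of the 19 factors passed in that comparison. The 8 erythroid markers were at 68.4% (Ermap) to 96.9% (Car1) of their control means there. The part of erythroid cells in the levels of these factors was not tested. Of the ETS family, Fli1 was at 0.39 (adjusted p = 0.0871) and Gabpa at 0.02 (adjusted p = 0.899), while Ets1 and Etv6 rose. Each set of Flt3-ITD carriers had Fli1 called higher than control by limma, at 169.5% (Flt3-ITD) and 141.1% (combined) of its control mean. Of 10854 genes, 924 and 587 were called higher there. With spike-in scaling, 0 of the 19 factors were called higher in either comparison. In the averaged effect with that scaling, Ets1 and Etv6 did not pass (0.19 and -0.09). Gabpa was among 10 factors that fell there, where 38.1% of all genes were called lower.

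Marker genes of other cells moved in the same libraries. All 8 erythroid markers fell in the averaged Flt3-ITD effect, with summed FPKM of 1598 to 1689 in the controls, 1489 to 1572 in the libraries labelled Smc3 del/+, 70.0 to 158 in Flt3-ITD, with 172 and 547 in the combined libraries. In the libraries labelled Smc3 del/+ the median log2 fold change from control was -0.24 for these markers and -0.93 for the receptors, and by limma 0 of either passed. All 8 erythroid markers were negative there, at 68.4% (Ermap) to 96.9% (Car1) of the control means. Car1 made up most of the erythroid sums in the libraries without Flt3-ITD. Mast cell and basophil markers, which include granule proteases, summed to 120 to 131 FPKM in the controls and 180 to 189 FPKM in the libraries labelled Smc3 del/+. They summed to 119 and 107 FPKM in Flt3-ITD, with 121 and 126 in the combined libraries. Against control, 2 of 6 tested fell and 1 rose in Flt3-ITD, where 9.5% of all genes were called lower and 8.51% higher. In the combined group 0 of 6 fell against control, where 6.38% of all genes were called lower. In the averaged Flt3-ITD effect, which also sets the carriers against the libraries labelled Smc3 del/+, 4 of 6 fell. Of 6 B cell markers 5 fell, and of 7 monocyte and macrophage markers 3 fell (C1qa, C1qb and C1qc) and 2 rose (Csf1r and Emr1; neither passed with spike-in scaling). B cell markers summed to 66.0 to 177 FPKM in the controls, 27.6 to 39.5 in the libraries labelled Smc3 del/+ and 5.06 to 9.53 in the 4 Flt3-ITD carriers. Monocyte and macrophage markers summed to 68.4 to 99.8 FPKM over all 8 libraries. Stem cell, granulocyte progenitor and endothelial markers gave 0 calls of 4, 5 and 2 tested by limma (3, 2 and 0 lower with spike-in scaling), and the mast cell protease gene Cma1 was listed at 0 throughout. Over all genes, the averaged Flt3-ITD effect called 12.8% lower and 10.9% higher. The part of these cell types in the receptor levels was not tested.

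**Figure D5:**
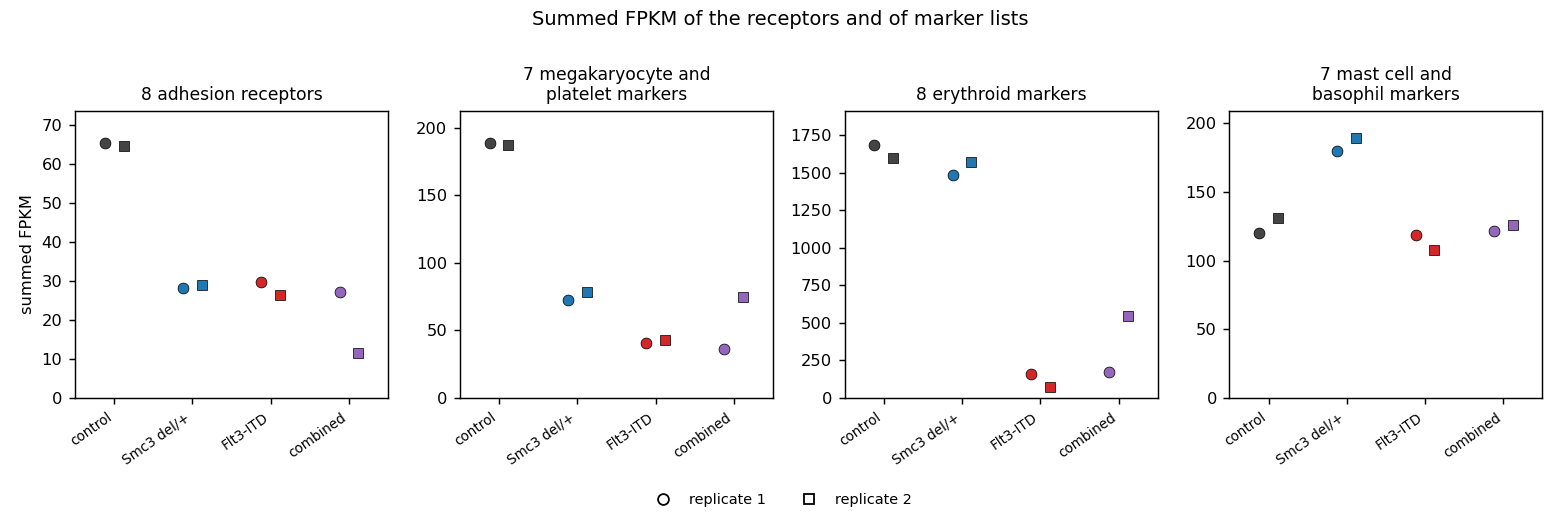
Summed FPKM (vertical axes, linear and starting at 0) of the 8 receptor genes, 7 megakaryocyte and platelet markers, 8 erythroid markers, and 7 mast cell and basophil markers in each library; circles are replicate 1 and squares replicate 2. In the libraries labelled Smc3 del/+ the receptor sum is 28.2 and 28.9 FPKM and the erythroid sum is 1489 and 1572 FPKM. Car1 alone is 1097 and 1182 FPKM of that erythroid sum, so the other erythroid markers hardly show in it.

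The receptors were also set beside one another by their profiles over the 8 libraries, as the root mean square difference of centred log2(FPKM + 1) values. The values were not scaled, so the difference is 0 only for profiles equal in both shape and size of change. The ranks below therefore mix shape with size. The closest pair among the receptors was Gp5 and Itga2b at 0.400, followed by Gp1bb and Clec1b at 0.401 and Gp9 and Itga2b at 0.421. Many other genes were closer to each receptor. Its nearest receptor ranked between 23 (for Gp9) and 480 (for Itgb3) among the genes tested. For Gp5 it ranked 150, and for Gp1bb 123. The farthest pair was Gp5 and Itgb3 at 1.26. Against the mean profile of the 7 tested receptors, Clec1b (0.246) and Itga2b (0.268) were nearest and Gp5 (0.612) and Itgb3 (0.696) farthest of the 7. Each receptor is part of that mean, and still Gp5 and Itgb3 ranked 3333 and 5506 among all genes tested. Chains of 1 complex were not the nearest pairs, since Itga2b and Itgb3 differed by 0.943 and Gp1ba and Gp1bb by 1.03.

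Of the genes outside the 8, those nearest to that mean profile were Clstn3 (0.127), Cacna1e (0.190), Timp3 (0.192), Vopp1 (0.200) and Ppp6r2 (0.235). Clstn3 was at 2.85 and 2.63 FPKM in the controls, 0.940 and 1.19 in the libraries labelled Smc3 del/+, 0.735 and 0.533 in Flt3-ITD, with 0.507 and 0.284 in the combined libraries. The controls were highest and the libraries labelled Smc3 del/+ lay between them and the 4 Flt3-ITD carriers, among which the combined replicates differed by more than the gap between the nearest libraries of the combined and Flt3-ITD groups. These likenesses rest on 8 libraries, 4 of which have the other Xist pattern.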

How the data were processed

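Gene-level FPKM of 8 libraries were used as the authors deposited them, without spike-in rows (92) in the tests. The submitters' processing notes name mm9, Cufflinks 2.0.0 and TopHat with no roles; no source used here states the annotation or the use of strand. A second deposited FPKM table, normalized by the authors, served as an alternative. The tests used limma 3.58.1 (R 4.3.3) on log2(FPKM + 1), with a variance trend and Benjamini-Hochberg adjustment over the 10854 genes that averaged 1 FPKM or more, at a threshold of 0.05. Single comparisons came from a fit of 4 group means and averaged effects from an additive fit. Fold changes on this scale understate those of low genes. Read depth is unknown. The replicates are single mice. The fits were tested on simulated data.

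The receptor genes, the 17 gene lists and the tests were chosen with earlier results of these data known. Named genes are the receptors, Smc3, Flt3 and Kit, up to 4 genes per list with the smallest p in the averaged Flt3-ITD effect, genes needed to place a receptor, and the 5 genes nearest to the mean receptor profile. Sept5, Clec9a and genes of lists named beyond these were added as counts required. Promoter sequences are from RefSeq on GRCm38.p6 (7 of 8 matched; Itgb3 had none); overlaps between genes were read from the GENCODE M21 annotation. Alternatives changed the pseudocount, filter, scaling, table, variance trend, replicate block, groups fitted and libraries; sex by the Xist pattern was added after seeing the data.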

Additional observations from a re-analysis of the deposited data

Results flagged for a closer look

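Gp6 in the second Flt3-ITD library, at 0.301 FPKM, stood apart from the other 3 Flt3-ITD carriers, all listed at 0. Its gap to them fills the whole range of the 4 values, but with the other 3 tied at 0 any value above 0 would do so, so that the gap says nothing of its size. The value remained below both controls (0.681 and 1.32 FPKM).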

How the results depend on the processing

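The 4 receptors called in the averaged Flt3-ITD effect passed under all alternatives run. Counts of called receptors moved as follows; where no construction shows the cause, the cause was not tested. For Smc3 del/+ against control the count of 0 became 2 in the normalized table (Gp1ba and Clec1b), 1 with spike-in scaling and 1 with only the 2 groups fitted. Of all genes, 0.0921%, 0.111% and 0.111% were called lower in these fits. Leaving out libraries gave 2 to 5 for Flt3-ITD against control, 2 to 7 for combined against control, 0 to 3 for combined against Flt3-ITD, 0 to 5 for Smc3 del/+ against Flt3-ITD and 0 to 2 for the interaction. The highest of these counts came without a combined library, in fits that called more of all genes than the fit of all libraries. The rise in calls was therefore not confined to the receptors. For combined against control the count was 0 with only the 2 groups fitted, where 0.221% of all genes were called lower. For Smc3 del/+ against Flt3-ITD it was 1 with no filter on low values and 5 with only the 2 groups fitted. Calls over all genes were 642 of 16161 and 2837 of 10854 in these fits. Among the receptors, signs turned only for values that did not pass as reported. With a pseudocount of 0.1 FPKM, Gp1ba in combined against Flt3-ITD was -0.019 and Gp5 in the averaged Smc3 effect 0.18. With spike-in scaling, Gp1ba in combined against Flt3-ITD was -0.092, Gp1bb in the interaction 0.11 and Itgb3 in the averaged Flt3-ITD effect -0.28. In the normalized table, Clec1b in Smc3 del/+ against Flt3-ITD was 0.026, Gp1bb and Gp9 in the interaction 0.53 and 0.27, and Itgb3 in the averaged Flt3-ITD effect -0.32. Leaving out single libraries turned other such values, with these ranges: Gp1bb in Flt3-ITD against control, -0.29 to 0.21; Itgb3 there, -0.0717 to 0.0620; Itgb3 in combined against control, -1.65 to 0.26; Gp1ba and Itgb3 in combined against Flt3-ITD, -0.31 to 0.31 and -1.64 to 0.27; Gp1bb and Itgb3 in the interaction, -0.44 to 0.070 and -0.71 to 1.20. Itgb3 in the averaged Flt3-ITD effect ranged from -0.29 to 0.47 and Gp5 in the averaged Smc3 effect from -0.32 to 0.11.

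The replicate numbers of the labels pair no mice: deviations of same-numbered libraries correlated at -0.113 to 0.0229. With the replicate number as a block, 4 receptors were called in Flt3-ITD against control (Gp9 at adjusted p = 0.0585), 5 in combined against control (Gp1bb at 0.0641), 2 in Smc3 del/+ against Flt3-ITD (Itga2b at 0.0528), 4 in the averaged Flt3-ITD effect and 0 in the others. Of all genes, 8.28% were called lower in Flt3-ITD against control and 5.18% in combined against control. The averaged Flt3-ITD effect called 11.5% lower, and Smc3 del/+ against Flt3-ITD called 439 of 10854 genes higher. Read depth is unknown, so levels near 0, such as Gp6 and Gp9 in the combined group, are given without a counting error.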
